A study of Mus musculus with 12 samples.

Results

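Pressure overload of the Alox5 knockout left ventricle was described across all genes by setting 3 libraries labelled Alox5ko_TAC against 3 labelled Alox5ko_NS. TAC is transverse aortic constriction, a surgical narrowing of the aorta that raises the load on the left ventricle. NS stands unexplained in the labels and names the group without TAC. Whether that group had a sham operation is not given, so load and surgery cannot be told apart. The words loaded and unloaded below mean with and without TAC. Both groups carry the Alox5 knockout, so the comparison is of TAC within 1 genotype. Wild-type libraries (3 WT_NS and 3 WT_TAC) entered the same model and served as a reference for the response. A gene was a member if it had at least 10 counts in at least 3 of the 6 Alox5ko libraries, which held for 15202 of 49492 genes in the deposited count table, 28070 of which had a count in any library. The labels give tissue, genotype and treatment, whereas age, sex, the time after surgery, the number of animals per library and the promoter or Cre line behind the knockout are not given in the sources used here. The design text speaks of a cardiac deficiency, and Alox5 itself (chromosome 6, 116410077 to 116461178), which encodes 5-lipoxygenase, the enzyme that starts leukotriene synthesis from arachidonic acid, had 39, 30 and 21 counts in Alox5ko_NS and 32, 25 and 23 in Alox5ko_TAC against 223 to 309 in the 6 WT libraries; without TAC, 6 genes differed between the genotypes (0.0395%), of which 2 were higher (0.0132%) and 4 lower (0.0263%) in Alox5ko.

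A ventricle that pumps against a raised load is known to enlarge its myocytes, to re-express genes of the fetal heart, such as those of the natriuretic peptides and skeletal alpha-actin, and to strengthen the Z-discs and intercalated discs through which force passes. Its fibroblasts can deposit matrix, and its myocytes can turn from fatty acids toward glucose. In a bulk library, fewer cells of a type and less RNA per cell cannot be told apart.

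The promoters of 3 myocyte genes that changed with TAC are shown because they place recognition letters of factors known from muscle next to genes that moved in opposite directions. Each run is 300 bases of RefSeq sequence on build GRCm38.p6, from 250 bases before to 50 bases after the annotated start, 5′ to 3′ on the gene's strand, with the matches in capitals. Xirp2 (chr2:67445752-67446051, plus strand) and Trim54 (chr5:31116362-31116661, plus strand) rose, and Mef2a (chr7:67372809-67373108, minus strand) fell.
Xirp2: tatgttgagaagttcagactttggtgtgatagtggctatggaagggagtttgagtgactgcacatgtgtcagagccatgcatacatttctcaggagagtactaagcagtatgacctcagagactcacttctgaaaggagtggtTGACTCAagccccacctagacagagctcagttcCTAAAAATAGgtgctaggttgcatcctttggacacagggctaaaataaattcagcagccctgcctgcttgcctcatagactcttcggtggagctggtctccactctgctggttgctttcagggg
Trim54: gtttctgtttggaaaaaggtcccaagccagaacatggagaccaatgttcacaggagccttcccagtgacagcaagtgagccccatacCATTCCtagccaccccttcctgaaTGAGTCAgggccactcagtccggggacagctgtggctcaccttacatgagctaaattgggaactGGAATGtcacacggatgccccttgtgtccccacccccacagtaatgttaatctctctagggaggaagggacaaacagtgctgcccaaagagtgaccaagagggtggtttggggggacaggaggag
Mef2a: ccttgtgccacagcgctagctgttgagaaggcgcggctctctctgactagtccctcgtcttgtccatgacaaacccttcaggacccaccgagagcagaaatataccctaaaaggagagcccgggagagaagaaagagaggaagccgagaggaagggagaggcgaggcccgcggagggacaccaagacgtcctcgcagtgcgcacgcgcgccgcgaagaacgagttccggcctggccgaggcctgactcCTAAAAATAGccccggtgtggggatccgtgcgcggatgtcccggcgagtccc
The 3 motifs marked were were each searched on both strands, and no marked match overlaps another: TGANTCA, known from AP-1 factors, CATTCC, the MCAT element known from TEAD factors, and the MEF2 site, whose letters Xirp2 and Mef2a share. The MEF2 site stood in 3.19% of all 32851 promoters of the table, CATTCC in 14.7% and TGANTCA in 7.81%. Among promoters of genes called higher with TAC in Alox5ko, 21 of 92 (22.8%) held CATTCC, against 13 of 97 (13.4%) of genes called lower and 12.7% of promoters of all genes tested. The order was the other way for the other marked motifs. TGANTCA stood in 5.43% of promoters of genes called higher, 10.3% of genes called lower and 5.15% of all genes tested. For the MEF2 site the shares were 2.17%, 5.15% and 1.95%. Further motifs searched were the CArG box (2.17%, 1.03% and 1.31%), CACGTG (9.78%, 8.25% and 9.62%) and AGATAA (4.35%, 6.19% and 6.6%). These shares describe letters in a window and were not tested. Promoters of other genes that rose were also searched. That of Hspb7 held CATTCC, and those of Nrap and Enah held none of the marked motifs.

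The 6 Alox5ko libraries held 21185989 to 27311196 counts, and the 2 groups were of unequal depth (23792567 to 27311196 without TAC and 21185989 to 23820523 with it). In 2 respects, single libraries stood apart from the others of their group. Alox5ko_NS 3 had the highest mitochondrial share of counts, at 21.4% against 18.7% and 18.2%, and Alox5ko_TAC 2 lay nearest to the unloaded group for many genes: it was the lowest TAC library for 77 of 115 genes called higher. Among the 99 genes called lower, Alox5ko_TAC 2 was the highest TAC library for 49. The shares over all genes tested were not counted. Genes that mark male cells were present in all 12 libraries, with 718 to 1181 counts of Ddx3y in Alox5ko. Lung and thymus markers, T cell, B cell and mast cell markers summed to at most 4.01 CPM per list, where CPM is the count scaled to library size with the TMM factors, and Sftpa1, Nkg7, Ms4a2 and Fcer1a were at 0 in all 6 libraries.

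With TAC, 214 of the 15202 genes changed in Alox5ko (1.41%), of which 115 rose (0.756%) and 99 fell (0.651%). A positive value, called or not, was held by 49.3% of all genes tested. The counts of list members below stand beside these shares, and no list was tested as a set. Calls were made at a threshold of 0.05 on the adjusted p of edgeR's quasi-likelihood test with Benjamini-Hochberg adjustment over all genes tested, and every adjusted p below comes from it. At least a 2-fold change was seen for 36 of the rises and 12 of the falls, so most changes were smaller: the median log2 fold change was 0.76 over the called rises and -0.56 over the called falls, against -0.003 over all genes. The 3 libraries of 1 group did not overlap those of the other for any called gene, which also held for 18.1% of all genes tested. The count filter was passed through TAC libraries alone by 16 genes, of which 7 were called. It was passed through Alox5ko_NS libraries alone by 51, of which 2 were called. All fold changes are log2 values of Alox5ko_TAC over Alox5ko_NS, with standard errors (SE).

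**Figure D1:**
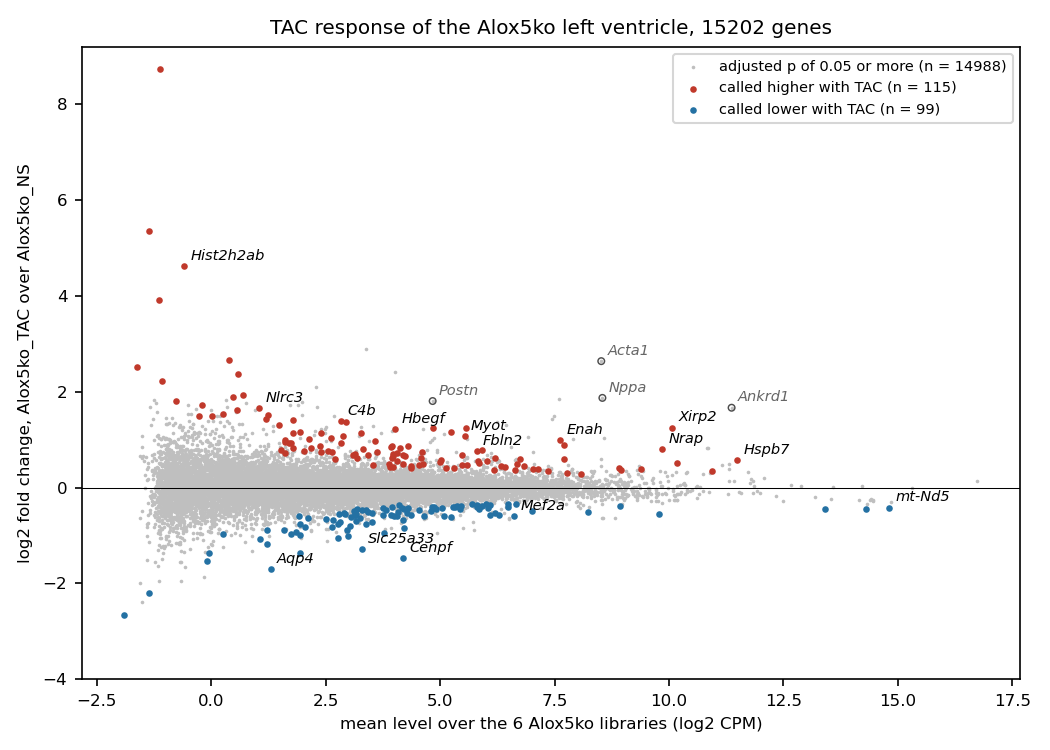
Log2 fold change of each of 15202 genes with TAC in Alox5ko (y axis) against its mean level over the 6 libraries (x axis, log2 CPM); red points are the 115 genes called higher, blue points the 99 called lower, grey points the rest. Open circles mark Nppa, Acta1, Ankrd1 and Postn, which lay at 1.67 to 2.64 without a call.

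Proteins of the Z-disc and intercalated disc, which carry force between sarcomeres and cells, had mostly positive values: of 37 tested members, 30 had a positive value, 4 rose and 1 fell (list median 0.29). Calls made up 13.5% of this list and 1.41% of all genes tested, of which 49.3% were positive. Xirp2, a repeat protein that binds actin at the intercalated disc (chromosome 2, 67446002 to 67526614), had 727, 708 and 685 CPM in Alox5ko_NS 1, 2 and 3 and 1941, 1098 and 2012 CPM in Alox5ko_TAC 1, 2 and 3. Every loaded library lay above every unloaded one, and Alox5ko_TAC 2 was the lowest of the loaded ones. Xirp2 rose by 1.25 (SE 0.22, adjusted p = 0.0303). Myot, the Z-disc protein myotilin, had 32.5, 27.7 and 36.4 CPM without and 80.1, 52.6 and 70.7 CPM with TAC and rose by 1.08 (SE 0.16, adjusted p = 0.00713). Nrap, which anchors actin at growing myofibrils, had 746, 781 and 586 CPM without and 1411, 1032 and 1231 CPM with TAC, a rise of 0.80 (SE 0.13, adjusted p = 0.00927). The small heat shock protein gene Hspb7, among the most abundant of the list, rose by 0.58 (SE 0.10, adjusted p = 0.00733), from 2278, 2420.2 and 2402 to 4013, 2889 and 3695 CPM. These 4 genes are all expressed mainly in striated muscle. The fall was that of Dsc2, a desmosomal cadherin, by 0.58 (SE 0.12, adjusted p = 0.0257). Des and Actn2, which encode desmin and alpha-actinin, had values of 0.46 and 0.39 and did not pass (adjusted p = 0.0546 and 0.0743).

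The number of Z-disc genes that passed differed without Alox5ko_TAC 2: 16 then rose and 1 fell, among them Des (adjusted p = 0.000419) and Actn2 (adjusted p = 0.00783). Calls over all genes tested grew as well in that setting, from 214 to 374 (219 higher and 155 lower). Myot, Nrap and Hspb7 were called whichever of the 6 libraries was left out (largest adjusted p = 0.0376, 0.0473 and 0.0473), whereas Xirp2 and Dsc2 reached 0.115 and 0.105 without 1 of the other libraries: Xirp2 lost its call without any library but Alox5ko_TAC 2 and Dsc2 without Alox5ko_NS 1 or 2 or Alox5ko_TAC 1 or 3. The antisense gene models Gm13601 and Gm17197 overlap Xirp2 and Nrap and were also called higher; whether counting used strand is not given in the sources used here, so whether these pairs rose separately cannot be told.

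Other genes of myocyte structure and growth also rose. Enah, an actin-regulating protein known from the fetal heart, had 135, 142 and 148 CPM without and 315, 206 and 322 CPM with TAC, a rise of 0.99 (SE 0.19, adjusted p = 0.0327). Trim54, also called MuRF3, a microtubule-binding ubiquitin ligase of muscle whose promoter is shown above, rose by 0.39 (SE 0.08, adjusted p = 0.021), and Pfkp, a phosphofructokinase of glycolysis, by 0.56 (adjusted p = 0.0334). Another 3 rises were picked out after their values were seen. Abra, an actin-binding protein of striated muscle, had 134, 157 and 173 CPM without and 263, 305 and 289 CPM with TAC and rose by 0.88 (SE 0.18, adjusted p = 0.0382). Adprhl1, a heart-restricted relative of the ADP-ribosylhydrolases, rose by 0.50 (SE 0.09, adjusted p = 0.00733), and Gnao1, a G-protein alpha subunit, by 0.88 (SE 0.13, adjusted p = 0.00413). Adprhl1 and Gnao1 stayed called with each of the 6 libraries left out, Trim54 lost its call without Alox5ko_NS 1, 2 or 3 or Alox5ko_TAC 1 (up to 0.0994), Enah and Pfkp without any but Alox5ko_TAC 2 (up to 0.124 and 0.142), and Abra without any of the 6 (up to 0.13).

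Mef2a moved against these rises. It encodes a transcription factor of muscle genes (chromosome 7, 67231163 to 67372858), and had 116, 126 and 123 CPM without and 72.1, 83.05 and 85.9 CPM with TAC. The 2 groups were well separated, and Mef2a fell by 0.60 (SE 0.09, adjusted p = 0.00453) and stayed called with each library left out (largest adjusted p = 0.0281). Per length, Mef2a stood at 8.04 ± 0.367 RPKM (reads per gene length and library size) without and 5.46 ± 0.518 RPKM with TAC (SD, n = 3). Of its relatives, Mef2c had 2.47 ± 0.451 and 2.41 ± 0.262 RPKM, and Mef2d 19.9 ± 3.62 and 20.8 ± 0.884 RPKM (SD, n = 3), and neither was called. Mapk14, the p38-alpha kinase known to phosphorylate MEF2 proteins, fell by 0.57 (SE 0.13, adjusted p = 0.0305). Hopx and Rbm24, a cardiac homeodomain protein and a muscle splicing factor, fell by 0.34 and 0.36 (adjusted p = 0.0284 and 0.0272); both, like Rbfox1, another splicing factor, which fell by 0.68 (adjusted p = 0.0125), were picked after their values were seen. Without single libraries Mapk14 reached 0.143 (lost without Alox5ko_NS 1 or 2 or Alox5ko_TAC 1 or 3), Hopx 0.116 (any but Alox5ko_NS 3), Rbm24 0.115 (Alox5ko_NS 2 or 3 or Alox5ko_TAC 1 or 3) and Rbfox1 0.071 (Alox5ko_TAC 1).

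The classical fetal genes had large values that did not pass by edgeR over 12 libraries, and 4 of them passed by other tests. Nppa, the atrial natriuretic peptide, had 172, 202 and 271 CPM without and 840.4, 278 and 1239 CPM with TAC; Alox5ko_TAC 2 was close to Alox5ko_NS 3, and the value of 1.87 (SE 0.54) had an adjusted p = 0.152. Acta1, skeletal alpha-actin, had 176, 153 and 169 and 1668, 277 and 1161 CPM, with Alox5ko_TAC 2 again far below the other loaded libraries, and a value of 2.64 (SE 0.69, adjusted p = 0.125). Nppb, the B-type natriuretic peptide, was more even at 101, 100.4 and 123 and 355, 267 and 285 CPM, with a value of 1.49 (SE 0.45, adjusted p = 0.174). Ankrd1, a stretch-responsive repeat protein, had 1488, 1432 and 1628 and 5673, 3006 and 5759.9 CPM and a value of 1.67 (adjusted p = 0.0971). Loaded libraries lay above all unloaded ones for all 4 genes. Without Alox5ko_TAC 2, Nppa and Acta1 passed (adjusted p = 0.0308 and 0.0315), while Ankrd1 and Nppb did not (0.053 and 0.197). DESeq2 called all 4 genes, and edgeR on the 6 Alox5ko libraries alone called Ankrd1 and Nppb but neither Nppa nor Acta1.

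Myh7, the slow beta-myosin, made up 1.54%, 1.69% and 1.27% of the summed RPKM of Myh7 and Myh6 in Alox5ko_NS and 1.96%, 1.58% and 2.25% in Alox5ko_TAC. The groups overlapped, and the difference of 0.430 percentage points, from 1.50% ± 0.212 to 1.93% ± 0.338 (SD, n = 3), had p = 0.2 by an exact two-sided permutation test, which cannot go below 0.1 for 3 against 3. In WT the share was 1.47% ± 0.0379 without and 2.09% ± 0.306 with TAC (SD, n = 3; exact permutation p = 0.1). Across the fetal and hypertrophic list, 18 of 22 members had a positive value, Enah and Pfkp rose and Mef2a fell. Without Alox5ko_TAC 2, 5 rose and 1 fell, in a setting where calls over all genes grew from 214 to 374. Among atrial markers, Nppa, Dkk3, Myl7 and Myl4 had values of 1.87, 1.78, 1.53 and 1.49, Stard10 and Nr2f2 had -0.23 and -0.27, none of the 6 tested markers was called, and their summed level was 191, 218 and 328 CPM without and 867, 296 and 1363 CPM with TAC. Sln had 0, 1 and 12 counts without and 4, 0 and 20 with TAC, and Bmp10 had 3 counts in Alox5ko_NS 3 and none in the other 5. The part of atrial tissue in the fetal values was not tested.

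**Figure D2:**
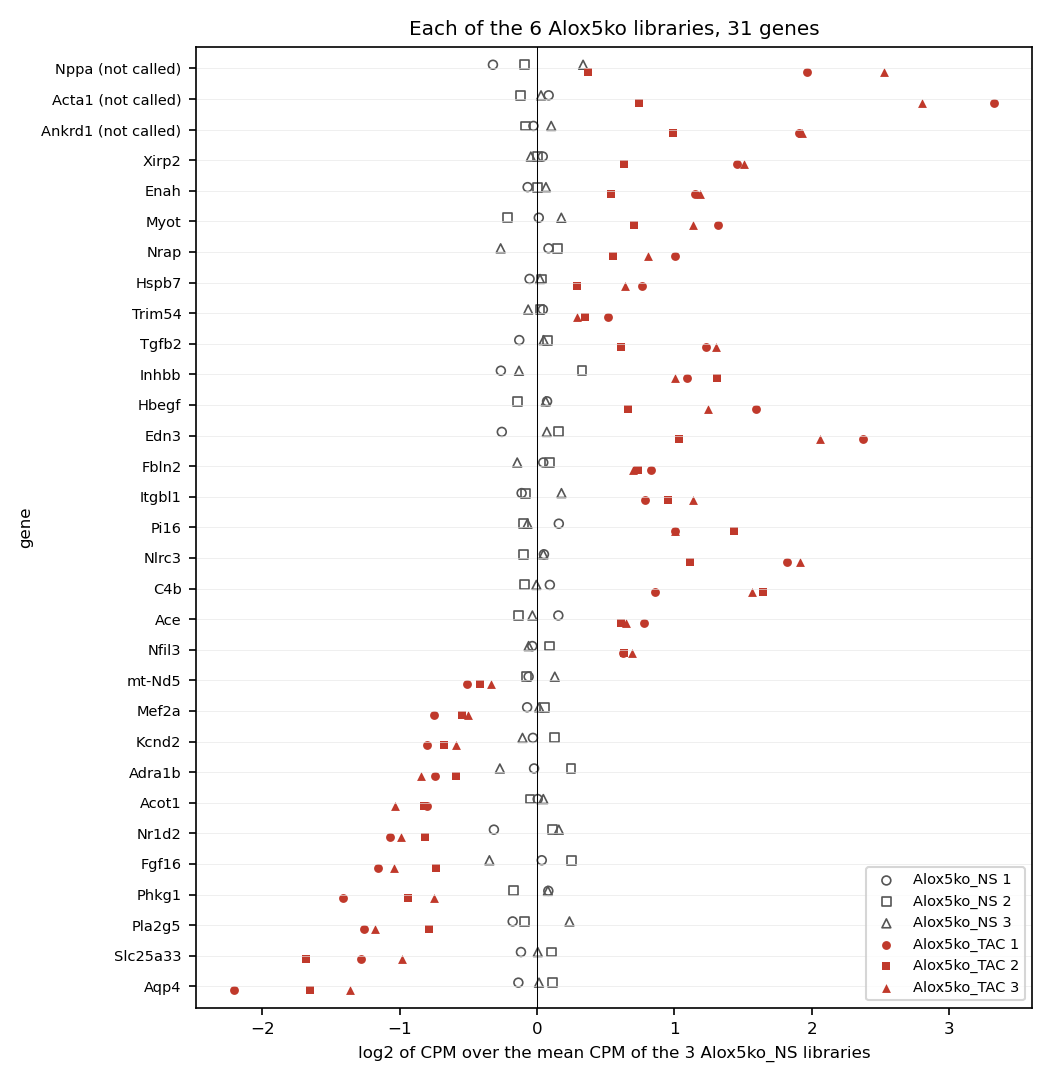
Level of 31 genes in each of the 6 Alox5ko libraries, as log2 of CPM over the mean of the 3 Alox5ko_NS libraries (x axis); open symbols are Alox5ko_NS 1 to 3, red symbols Alox5ko_TAC 1 to 3. Alox5ko_TAC 2 (red square) lies closest to the unloaded libraries for Xirp2, Enah, Tgfb2 and the 3 genes marked not called, but not for Aqp4 or Slc25a33.

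Ligands of the TGF-beta superfamily, which signal through paired serine-threonine kinase receptors to Smad proteins, gave 3 of the 4 calls in their pathway. Among these, Gdf6 passed the count filter through TAC libraries alone. Of 50 tested members of the pathway, 35 had a positive value, 4 rose and none fell. Calls made up 8% of this list and 1.41% of all genes tested, of which 49.3% were positive. Tgfb2 (chromosome 1, 186622792 to 186705989) had 4.59, 5.29 and 5.20 CPM without and 11.8, 7.67 and 12.4 CPM with TAC, and rose by 1.08 (SE 0.17, adjusted p = 0.00476). Per length it was the least abundant TGF-beta ligand without TAC, at 0.842 ± 0.0589 RPKM against 2.48 ± 0.229 for Tgfb1 and 2.91 ± 0.158 for Tgfb3 (SD, n = 3), and reached 1.82 ± 0.418 RPKM with TAC. Tgfb1 and Tgfb3 had values of 0.14 and 0.51 and did not pass (adjusted p = 0.705 and 0.129). Inhbb, the beta-B subunit of activins and inhibin, had 1.90, 2.87 and 2.09 CPM without and 4.88, 5.66 and 4.59 CPM with TAC, a rise of 1.14 (SE 0.19, adjusted p = 0.00733); here Alox5ko_TAC 2 was the highest library. Gdf6, a bone morphogenetic ligand, rose by 1.81 (adjusted p = 0.0321) at no more than 1.10 CPM. Its counts were 8, 8 and 4 without and 26, 15 and 21 with TAC, so the filter itself chose it for high loaded values. Bambi, a decoy receptor without kinase domain, rose by 1.01 (SE 0.21, adjusted p = 0.0265).

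None of the tested type I or type II receptor genes passed: Tgfbr1, Tgfbr2, Acvr1 and Bmpr2 had values of 0.23, 0.33, 0.48 and -0.26, and Smad2, Smad3 and Smad7 had -0.24, -0.24 and -0.22. Extracellular regulators lay higher without a call, with 2.10 for Ltbp2, a latent TGF-beta binding protein (adjusted p = 0.131), and 1.12 for the activin inhibitor Fstl3 (adjusted p = 0.0796). Gdf15, a stress cytokine, had 1.01, 0.484 and 1.11 and 1.10, 2.74 and 2.44 CPM and did not pass (adjusted p = 0.178). Tgfb2 and Inhbb were called with each library left out (largest adjusted p = 0.0365 and 0.0421), and Gdf6 and Bambi lost the call without any library but Alox5ko_TAC 2 (up to 0.129 and 0.123). The gene model Gm29491 overlaps Tgfb2 on the other strand and was also called higher.

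Fibroblast and matrix genes had mostly positive values and few calls. Of 29 matricellular genes and genes of activated fibroblasts, 27 were positive (list median 0.72), and only Itgbl1, an integrin-like secreted protein, rose, from 7.92, 8.09 and 9.68 to 14.8, 16.6 and 18.8 CPM (0.97, SE 0.16, adjusted p = 0.00733). That 1 call was 3.45% of the list, against 1.41% of all genes tested. Thbs4, Cilp and Postn, which encode a thrombospondin, a cartilage matrix protein and periostin, had the high values of 2.90, 2.41 and 1.81 without passing (adjusted p = 0.157, 0.103 and 0.18). Postn had 15.5, 14.1 and 18.3 CPM without and 70.3, 27.1 and 69.9 CPM with TAC, and Alox5ko_TAC 2 was far below the other loaded libraries. The summed level of 9 tested markers of activated fibroblasts was 49.7, 41.5 and 59.99 CPM without and 196, 79.5 and 223 CPM with TAC. Without Alox5ko_TAC 2, 4 of the 29 genes rose, with Cilp at an adjusted p = 0.0396 and Postn at 0.098. Calls over all genes grew from 214 to 374 in that setting. Spp1, osteopontin, was under the count filter with 6, 6 and 3 counts without and 16, 5 and 28 with TAC.

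Fbln2, the elastic fibre protein fibulin-2, had 44.1, 45.5 and 38.7 CPM without and 76.2, 71.1 and 69.4 CPM with TAC, a rise of 0.76 (SE 0.12, adjusted p = 0.00733). Among the loaded libraries Fbln2 varied little, and Alox5ko_TAC 2 was no exception. It was the 1 call of 51 glycoproteins, proteoglycans and crosslinking enzymes (1.96%, near the 1.41% over all genes), of which 44 had a positive value. None of 27 collagen genes passed, although 23 had a positive value (median 0.42). Col12a1 had the highest value, 1.68 (SE 0.50, adjusted p = 0.133), and passed without Alox5ko_TAC 2 (adjusted p = 0.0447); DESeq2 called Col12a1 and Col14a1 (0.52, adjusted p = 0.0769 by edgeR). Col1a1 had 50.8, 46.2 and 38.99 and 72.5, 50.8 and 77.3 CPM, and its groups overlapped, as did those of Col3a1 (154, 149 and 126 and 182, 138 and 184 CPM). Among 47 proteases and inhibitors, Adamts8, a secreted metalloprotease, and Adamtsl5, which lacks the protease domain, rose by 1.54 and 0.48 (adjusted p = 0.0344 and 0.0158). The fibroblast marker Pi16 was the 1 call of 13 fibroblast markers, at 28.2, 23.5 and 24.1 CPM without and 50.6, 68.2 and 50.6 CPM with TAC, a rise of 1.16 (SE 0.19, adjusted p = 0.0179). Cpxm2, a secreted carboxypeptidase-like protein, rose by 1.24 (SE 0.23, adjusted p = 0.0284). Another 6 rises of matrix-related genes were picked after their values were seen: the heparan sulfatases Sulf1 and Sulf2 (0.72 and 0.41), the integrin subunits Itga11 and Itga5 (0.94 and 0.49), Svep1 (1.04) and Aebp1 (0.70), with adjusted p-values from 0.0125 to 0.0347; each was lost without at least 1 library (up to 0.159 for Itga11). Itgbl1 was called with each library left out (largest adjusted p = 0.0439) and Fbln2 with each but Alox5ko_NS 3 (0.0503); Pi16 was lost without Alox5ko_NS 2 or 3 (up to 0.0846), Adamtsl5 without Alox5ko_NS 2 or 3 or Alox5ko_TAC 1 (up to 0.0811), and Adamts8 and Cpxm2 without any but Alox5ko_TAC 2 (up to 0.158 and 0.114).

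**Figure D3:**
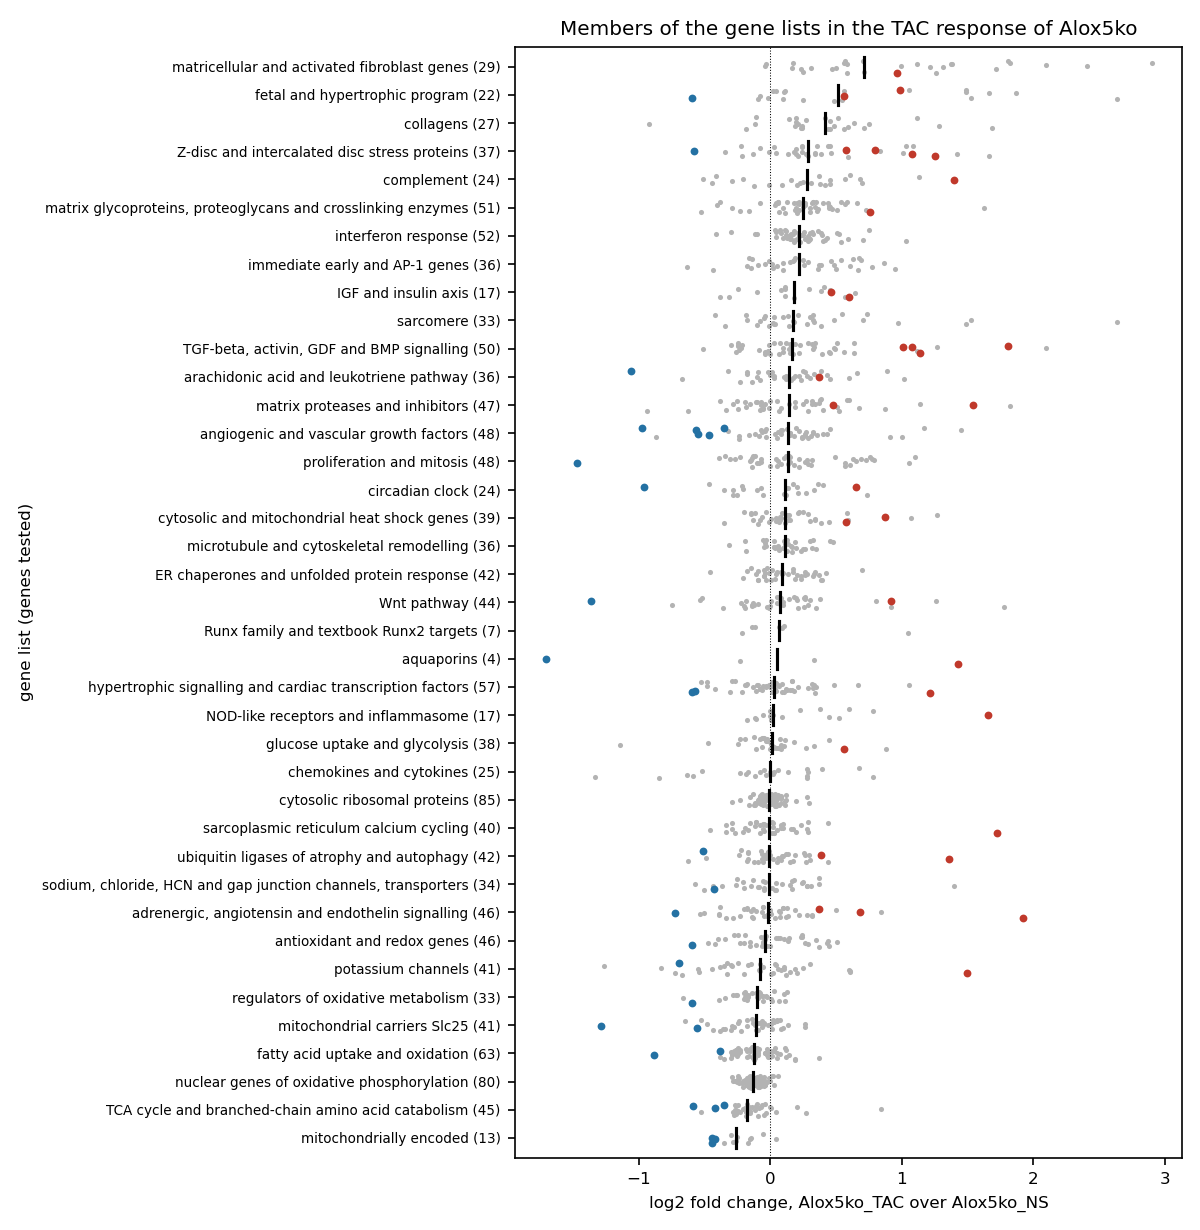
Log2 fold change with TAC in Alox5ko (x axis) of each tested member of the gene lists (y axis, number of tested genes in brackets), in order of the list median (black bar); red and blue points were called higher and lower, grey points were not called. Medians run from -0.26 for mitochondrially encoded genes to 0.72 for matricellular genes, and most lists hold at most 2 called genes.

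**Figure D4:**
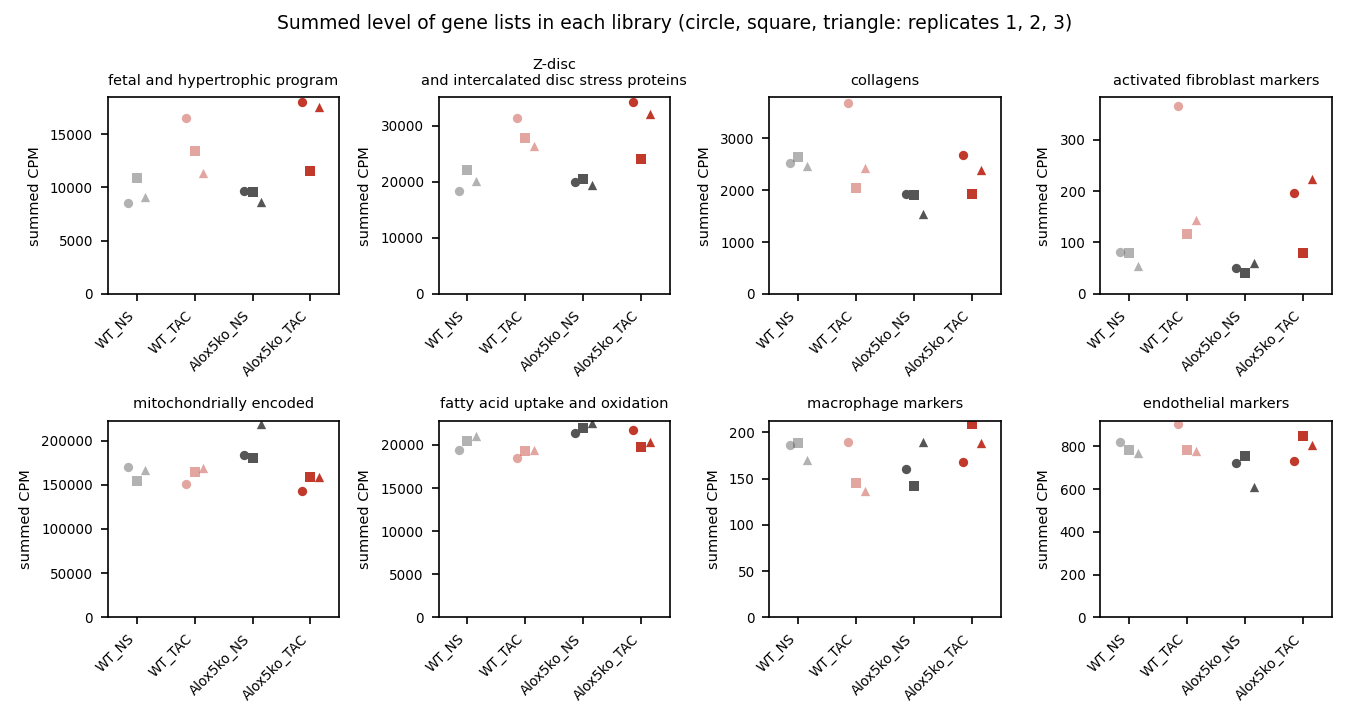
Summed CPM of the tested members of 8 lists in each of the 12 libraries (y axis, from 0), by group; circles, squares and triangles are replicates 1, 2 and 3, and red marks TAC. In Alox5ko_TAC the square (replicate 2) lies lowest for the fetal, Z-disc, collagen and activated fibroblast lists, and the triangle of Alox5ko_NS (replicate 3) lies highest for the mitochondrially encoded list.

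Genes of growth factor families and of other vascular ligands went both ways. Of 48 angiogenic and vascular growth factor genes, 31 had a positive value, yet the 5 called genes (10.4%, against 1.41% of all genes tested) all fell. Fgf16, a fibroblast growth factor known from the heart, had 4.74, 5.51 and 3.64 CPM without and 2.08, 2.79 and 2.25 CPM with TAC, a fall by 0.97 (SE 0.19, adjusted p = 0.0145). Fgf2, Fgf13 and Fgf1 fell by 0.55, 0.47 and 0.35 (adjusted p = 0.0325, 0.045 and 0.0471); Fgf1, the most abundant of the 4 per length at 23.8 ± 1.10 RPKM without and 19.2 ± 2.40 RPKM with TAC (SD, n = 3), was named after its value was seen. Apln, a peptide ligand that acts on vessels and myocytes, fell by 0.56 (SE 0.11, adjusted p = 0.021), from 10.3, 11.7 and 9.90 to 7.85, 7.17 and 6.51 CPM, while its receptor gene Aplnr had 0.44 and was not called. Vegfa had 0.28 and was not called (adjusted p = 0.0971). Hbegf, a membrane-bound ligand of the EGF receptor, moved the other way, with 11.4, 9.76 and 11.3 CPM without and 32.6, 17.1 and 25.5 CPM with TAC, a rise of 1.22 (SE 0.23, adjusted p = 0.0287). Each of these calls was lost without some single library. Hbegf, Fgf13 and Fgf1 reached up to 0.117, 0.189 and 0.194 without any library but Alox5ko_TAC 2. Fgf16 reached 0.079 (lost without Alox5ko_NS 1 or 2 or Alox5ko_TAC 1 or 3), Fgf2 0.135 (Alox5ko_NS 2 or 3 or Alox5ko_TAC 1 or 3) and Apln 0.0997 (Alox5ko_NS 1 or 2 or Alox5ko_TAC 3). Fgf2 overlaps the antisense gene Nudt6, so its reads cannot be assigned without the strand setting.

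Among 46 genes of adrenergic, angiotensin, endothelin and related receptor signalling, 3 rose and 1 fell (8.70% called, against 1.41% of all genes tested). Edn3, endothelin-3, had 0.672, 0.894 and 0.844 CPM without and 4.16, 1.64 and 3.35 CPM with TAC and rose by 1.92 (SE 0.41, adjusted p = 0.0314), while Edn1, the endothelin usually studied in hypertrophy, had -0.33 and did not pass (adjusted p = 0.675). Ace, the enzyme that makes angiotensin II, had 39.2, 32.04 and 34.4 CPM without and 60.3, 53.8 and 55.2 CPM with TAC, a rise of 0.68 (SE 0.12, adjusted p = 0.00927) with loaded libraries close together. Adra1b, the alpha-1B adrenergic receptor, fell by 0.73 (SE 0.16, adjusted p = 0.0265), from 8.81, 10.6 and 7.42 to 5.35, 5.94 and 4.98 CPM; the related Adra1a had -0.50 and Adrb1 -0.15, neither called. The muscarinic receptor gene Chrm2, picked after its value was seen, fell by 0.46 (adjusted p = 0.0321). Ace was lost without Alox5ko_NS 2 or 3 or Alox5ko_TAC 1 (up to 0.0554), Adra1b without Alox5ko_NS 1 or 2 or Alox5ko_TAC 1 or 3 (up to 0.116), and Edn3 and Chrm2 without any but Alox5ko_TAC 2 (up to 0.14 and 0.15).

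In the arachidonic acid pathway, on which Alox5 acts, TAC called 1 gene higher and 1 lower of 36 (5.56%, against 1.41% of all genes tested). Pla2g5, a secreted phospholipase that frees fatty acids from phospholipids, had 8.70, 9.24 and 11.6 CPM without and 4.12, 5.71 and 4.35 CPM with TAC, a fall by 1.06 (SE 0.18, adjusted p = 0.00737). Ptger1, a prostaglandin E2 receptor, rose by 0.37 (SE 0.08, adjusted p = 0.021), from 67.00, 63.8 and 60.9 to 87.8, 76.98 and 83.5 CPM. Alox5ap, the partner protein of 5-lipoxygenase, and Lta4h, which makes leukotriene B4, had values of -0.01 and 0.18 and did not pass, and the residual Alox5 counts had 0.03 (adjusted p = 0.974). Runx2, named in the series title, was under the filter with 12, 8 and 3 counts without and 3, 8 and 3 with TAC; of 7 tested Runx family and target genes none passed, and Runx1 had 0.710, 0.745 and 1.29 and 1.44, 1.42 and 2.77 CPM (1.05, adjusted p = 0.168). Pla2g5 was lost only without Alox5ko_TAC 1 (0.054), and Ptger1 without Alox5ko_NS 2 or 3 or Alox5ko_TAC 1 or 3 (up to 0.097).

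Genes of oxidative metabolism had mostly negative and small values. Of 80 nuclear genes of oxidative phosphorylation 76 were negative, of 63 genes of fatty acid uptake and oxidation 48, and of 45 genes of the TCA cycle and branched-chain amino acid breakdown 39, with medians of -0.13, -0.12 and -0.18. Among all genes tested 49.3% had a positive value. Without Alox5ko_NS 3 the medians were -0.04, -0.12 and -0.15. In WT 71, 47 and 39 were negative, with medians of -0.11, -0.14 and -0.17. The summed level of the first list overlapped between groups, at 37431, 37897 and 42540.5 CPM without and 37649.2, 34588.6 and 35537.3 CPM with TAC. Calls were few: none in the first list, Acot1 and Acaa2 in the second, and 3 in the last. Acot1, an acyl-CoA thioesterase, had 10.5, 10.1 and 10.8 CPM without and 6.02, 5.94 and 5.12 CPM with TAC, a fall by 0.88 (SE 0.15, adjusted p = 0.00733), and the groups were far apart for their spread. A set of 3 genes of branched-chain amino acid and propionate breakdown fell together: Ppm1k, the phosphatase that activates the branched-chain ketoacid dehydrogenase, by 0.59 (SE 0.12, adjusted p = 0.0221); Dbt, a subunit of that dehydrogenase, by 0.42 (SE 0.09, adjusted p = 0.0282); and Mut, methylmalonyl-CoA mutase, by 0.35 (SE 0.08, adjusted p = 0.0305). Ppm1k had 27.2, 34.2 and 31.1 CPM without and 18.03, 20.04 and 23.4 CPM with TAC. Phkg1, the muscle catalytic subunit of phosphorylase kinase, which starts glycogen breakdown, fell by 1.01 (SE 0.17, adjusted p = 0.00737), from 11.8, 9.91 and 11.8 to 4.20, 5.84 and 6.65 CPM.

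Regulators and transporters of mitochondria showed single falls. Slc25a33, a pyrimidine nucleotide carrier, had 14.2, 16.5 and 15.4 CPM without and 6.32, 4.79 and 7.75 CPM with TAC, a fall by 1.29 (SE 0.25, adjusted p = 0.0287), and Slc25a22, a glutamate carrier, fell by 0.56 (adjusted p = 0.0421). Pink1, a kinase that marks damaged mitochondria for removal, had 357, 372 and 347 CPM without and 212, 255 and 287 CPM with TAC, a fall by 0.51 (SE 0.11, adjusted p = 0.0282); the gene model Gm27646 overlaps it on the same strand and was also called lower. Ppara and Ppargc1a, a receptor and a coactivator that drive fatty acid oxidation genes, had values of -0.34 and -0.66 and did not pass (adjusted p = 0.138 and 0.101); Ppargc1a had 101, 90.95 and 157 and 76.2, 75.2 and 69.4 CPM, with Alox5ko_NS 3 high. Pdk4, which blocks glucose oxidation, had -0.04 (adjusted p = 0.973).

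Of 13 protein genes of the mitochondrial genome, 12 had a negative value and 3 of the 7 that encode complex I subunits fell: mt-Nd5 from 31769, 31453 and 36254 to 23259, 24888 and 26215 CPM (-0.42, SE 0.09, adjusted p = 0.021), mt-Nd4l by 0.44 and mt-Nd6 by 0.44 (adjusted p = 0.021 and 0.0303). The tRNA genes mt-Tq and mt-Te, picked after their values were seen, fell by 0.57 and 0.55 (adjusted p = 0.00521 and 0.0158). The summed level of the 13 genes was 183792, 179885 and 218334 CPM without and 142480.0, 159197 and 158921 CPM with TAC, highest in Alox5ko_NS 3, and without that library none of the 13 passed (mt-Nd5 adjusted p = 0.0503, mt-Nd4l 0.0503 and mt-Nd6 0.0845). The genes mt-Nd5 and mt-Nd6 overlap on opposite strands, as mt-Nd4l and mt-Nd4 do on the same strand, so reads of a pair may be shared. Acot1 and Phkg1 were called with each library left out (largest adjusted p = 0.0428 and 0.0475). Acaa2 (0.38 lower, adjusted p = 0.021) was lost without Alox5ko_NS 1 or Alox5ko_TAC 1 or 3 (up to 0.102), Ppm1k without Alox5ko_NS 2 or 3 or Alox5ko_TAC 1 (up to 0.114), Dbt and Pink1 without Alox5ko_NS 1, 2 or 3 or Alox5ko_TAC 1 (up to 0.129 and 0.12), Mut and Slc25a22 without any but Alox5ko_TAC 2 (up to 0.129 and 0.179), and Slc25a33 without any but Alox5ko_TAC 3 (up to 0.124).

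Channels and transporters of the membrane changed as single genes. Aqp4, a water channel (chromosome 18, 15389394 to 15403684), had 3.92, 4.66 and 4.35 CPM without and 0.933, 1.37 and 1.67 CPM with TAC, a fall by 1.71 (SE 0.22, adjusted p = 0.000848), the lowest log2 value among the named genes. Aqp8, another aquaporin, rose by 1.43 (SE 0.30, adjusted p = 0.0279), from 0.896, 1.38 and 1.91 to 5.05, 2.65 and 3.44 CPM. Per length both were far below Aqp1, which had 35.3 ± 1.96 RPKM without and 45.6 ± 3.84 RPKM with TAC (SD, n = 3; log2 value 0.33, not called), against 0.823 ± 0.0716 and 0.260 ± 0.0726 RPKM for Aqp4 and 0.853 ± 0.293 and 2.34 ± 0.748 RPKM for Aqp8. Kcnd2, a pore subunit of the transient outward potassium current, fell by 0.69 (SE 0.15, adjusted p = 0.0284), from 11.1, 12.4 and 10.5 to 6.49, 7.08 and 7.51 CPM, and Kcnd3 and Kcnip2 of the same current had -0.55 and -0.20 and did not pass. Kcnc1 rose by 1.50 (adjusted p = 0.0265) at no more than 1.36 CPM, and the chloride transporter gene Clcn3 fell by 0.43 (adjusted p = 0.0405). Of 40 genes of calcium cycling, Jsrp1, a junctional protein of the sarcoplasmic reticulum, was the 1 call, a rise of 1.72 (adjusted p = 0.0265); Atp2a2, the calcium pump, and its inhibitor Pln had -0.29 and -0.29 and did not pass (adjusted p = 0.148 and 0.124). Aqp4 stayed called with each library left out (largest adjusted p = 0.0118); Aqp8 was lost without Alox5ko_NS 1 or 2 or Alox5ko_TAC 1 or 3 (up to 0.13), Kcnd2, Kcnc1 and Jsrp1 without any but Alox5ko_TAC 2 (up to 0.126, 0.104 and 0.117) and Clcn3 without any but Alox5ko_NS 3 (up to 0.162).

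In the list of 24 circadian clock genes, 1 rose and 1 fell (8.33% called, against 1.41% of all genes tested). Nfil3, a repressor of D-box genes, had 14.6, 15.9 and 14.3 CPM without and 23.04, 23.2 and 24.1 CPM with TAC, a rise of 0.65 (SE 0.10, adjusted p = 0.0055), and Nr1d2, the nuclear receptor REV-ERB-beta (chromosome 14, 18204054 to 18239127), had 15.4, 20.7 and 21.4 and 9.12, 10.9 and 9.66 CPM, a fall by 0.96 (SE 0.14, adjusted p = 0.00388). Both were called with each library left out (largest adjusted p = 0.0365 and 0.0281). The core clock genes Arntl, Clock and Per1 had 0.21, -0.07 and 0.14 and Dbp -0.28, none called; times of tissue collection are not given in the sources used here. Dusp18, a phosphatase, fell by 0.85 (SE 0.12, adjusted p = 0.00188), from 22.2, 26.6 and 25.7 to 12.05, 16.2 and 13.1 CPM, and was called with each library left out, as was Prrg1, a membrane protein with a Gla domain, which fell by 0.998 (SE 0.17, adjusted p = 0.00766).

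Innate immune lists held 2 called genes. Nlrc3, a NOD-like receptor known to restrain innate signalling (chromosome 16, 3945007 to 3976632), had 1.16, 1.04 and 1.15 CPM without and 3.95, 2.42 and 4.21 CPM with TAC, a rise of 1.65 (SE 0.27, adjusted p = 0.0055), the 1 call of 17 NOD-like receptor and inflammasome genes. C4b, complement component 4, had 4.71, 4.14 and 4.40 and 8.02, 13.8 and 13.1 CPM, a rise of 1.39 (SE 0.29, adjusted p = 0.0426), the 1 call of 24 complement genes. None of 25 chemokines and cytokines, 52 interferon response genes or 36 immediate early genes passed. Interferon response genes had small positive values in 48 of 52 members, with a median of 0.22, and in WT 14 of the 52 were positive (median -0.16); Usp18 and Parp9 had 0.75 and 0.38 (adjusted p = 0.133 and 0.0654). Macrophage markers were positive in 15 of 16 members (median 0.20) with no call, and their summed level overlapped between groups at 159.8, 143 and 189.6 and 167, 209 and 188 CPM. In WT 6 of the 16 were positive (median -0.06). Endothelial markers were positive in all 14 tested, with no call and summed levels of 724, 757 and 611 and 730.4, 849.7 and 805 CPM. In WT 7 of the 14 were positive (median 0.03). Over all genes tested, 49.3% were positive in Alox5ko and 50.8% in WT. The part of these cells in the immune values was not tested. Nlrc3 was called with each library left out (largest adjusted p = 0.0366) and C4b was lost without any but Alox5ko_TAC 1 (up to 0.149).

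Protein quality control and growth factor axes added a few genes. Of 39 heat shock genes 28 had a positive value, and Hspa1l rose with Hspb7, by 0.87 (SE 0.18, adjusted p = 0.0321), from 11.2, 10.5 and 12.5 to 23.2, 16.8 and 22.6 CPM; the antisense model Gm10501 overlaps it and was called as well. None of 42 ER chaperones and unfolded protein response genes passed, Pdia4 being the closest at 0.39 (adjusted p = 0.0529). In the IGF axis, Igfbp5, a binding protein, and Grb10, an adaptor that damps insulin and IGF signalling, rose by 0.60 and 0.46 (adjusted p = 0.014 and 0.0328), while Igf1 had 0.41 and was not called. Wnt pathway genes gave Fzd2, a receptor, higher by 0.92 (adjusted p = 0.0335) and Dixdc1, an activator of the pathway, lower by 1.36 (adjusted p = 0.0287). Gstm7, a glutathione transferase, fell by 0.59 (adjusted p = 0.0282). Cenpf, a kinetochore protein also known from myocytes, fell by 1.47 (SE 0.28, adjusted p = 0.0378), from 29.8, 36.1 and 25.4 to 9.25, 12.2 and 11.6 CPM. Cenpf was the 1 call of 48 proliferation genes (2.08%, near the 1.41% over all genes). Without single libraries all 7 were lost: Igfbp5 without Alox5ko_NS 3 or Alox5ko_TAC 3 (up to 0.0746), Dixdc1 without Alox5ko_NS 2 or 3 or Alox5ko_TAC 1 or 3 (up to 0.13), Hspa1l, Grb10, Fzd2 and Gstm7 without any but Alox5ko_TAC 2 (up to 0.13, 0.161, 0.152 and 0.134) and Cenpf without any of the 6 (up to 0.139).

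Among genes with a mean log2 CPM of at least 1, predicted gene models and pseudogenes left out, 9 of the 15 highest and 15 lowest called values are not yet described. Cnksr1, Klhl34, Spsb4, Apold1 and Ccdc136 rose by 1.41, 1.36, 1.16, 1.15 and 1.13. Apold1 is an early response gene of vascular endothelium, with 5.30, 7.64 and 6.66 CPM without and 17.1, 15.1 and 11.2 CPM with TAC. In WT_NS it had 16.4, 17.7 and 10.1 CPM, and its value with TAC in WT was 0.27. The log2 value of Alox5ko_NS over WT_NS was -1.17 and was not called (adjusted p = 0.382). Ubxn10, Lingo3, Gfra4 and Zc3h6 fell by 1.08, 0.93, 0.89 and 0.82; Ubxn10 had 2.84, 3.13 and 2.84 CPM without and 1.400, 1.46 and 1.29 CPM with TAC. All 9 were lost without at least 2 of Alox5ko_NS 1, 2 and 3 and Alox5ko_TAC 1, 2 and 3, with adjusted p-values of up to 0.176 for Zc3h6. Over all 214 called genes, 34 were called with each of the 6 libraries left out in turn, 180 were lost without at least 1, and 18 without any of them; leaving out a library leaves a group of 2. When edgeR was fitted to the 6 Alox5ko libraries alone, 120 of the 214 genes were called. Of the genes described above as changed, Adamts8, Ccdc136, Pfkp, Grb10, Trim54, Ptger1, Mut, Acaa2, mt-Nd5, mt-Nd4l, mt-Nd6, Dbt, Clcn3, Fgf13, Fgf2, Fgf1, Slc25a22, Apln, Mapk14, Zc3h6, Gfra4, Hopx, Rbm24, Sulf2, Itga11 and the gene models Gm13601, Gm27646 and Gm29491 were not called in that fit.

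The response in Alox5ko was set against that of WT libraries in 1 model. The value of Alox5ko minus that of WT passed for no gene (0.0%), the smallest adjusted p being 0.496 by edgeR. An unadjusted p under 0.05 was found for 818 of 15202 genes by edgeR, near the share of 0.05 that no difference at all would give. DESeq2 called 1 gene, Errfi1, named for that count. With TAC, 117 genes changed in WT (0.77%), and 35 were called in both genotypes, each in the same direction in both. These are 16.4% of the calls in Alox5ko and 29.9% of those in WT. Of the 214 called in Alox5ko, 200 had a value of the same sign in WT. Their values in WT were smaller, with medians of 0.40 for the genes called higher and -0.26 for those called lower, but the genes were selected by their values in Alox5ko.

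The values can be read side by side with the interval of the difference (95%). For Hspb7, Trim54, Itgbl1, Acaa2, Pi16 and Acot1 the values in WT were 0.70, 0.39, 0.998, -0.36, 1.49 and -1.06, and 0.58, 0.39, 0.97, -0.38, 1.16 and -0.88 in Alox5ko. The difference for Trim54 lay between -0.24 and 0.23. For Inhbb, Mef2a, Nfil3, Nr1d2, Fgf2, Pink1 and mt-Nd5 the values in WT were 0.14, -0.16, 0.16, -0.34, 0.06, 0.04 and 0.00. The intervals of these 7 differences left out 0 taken singly, for example 0.43 to 1.57 for Inhbb and -0.71 to -0.16 for Mef2a, and none passed over all genes. These genes were chosen among the calls in Alox5ko, and the Alox5ko value is part of the difference. That choice moves the intervals away from 0, so they are no support for a difference. Of the 214 calls, 68 had an unadjusted p under 0.05 for the difference by edgeR. The 7 genes were drawn from the calls whose interval left out 0, so they do not stand for the 214 as a set. Among the smallest p-values of the difference were those of Hist2h2aa1 and the overlapping AC125099.1, Rell1 and Camk2b. Hist2h2aa1 had 13, 17 and 16 counts in Alox5ko_NS, 65, 67 and 76 in Alox5ko_TAC and 8 to 19 in WT. Camk2b, a subunit of the calcium and calmodulin kinase II, had 0.91 in WT (adjusted p = 0.00449) and 0.03 in Alox5ko (adjusted p = 0.95), with 8.89, 7.75 and 9.33 CPM without and 9.38, 8.90 and 8.18 CPM with TAC in the latter; the difference between the genotypes was -0.88 (95% interval -1.27 to -0.48) and did not pass over all genes (adjusted p = 0.496).

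**Figure D5:**
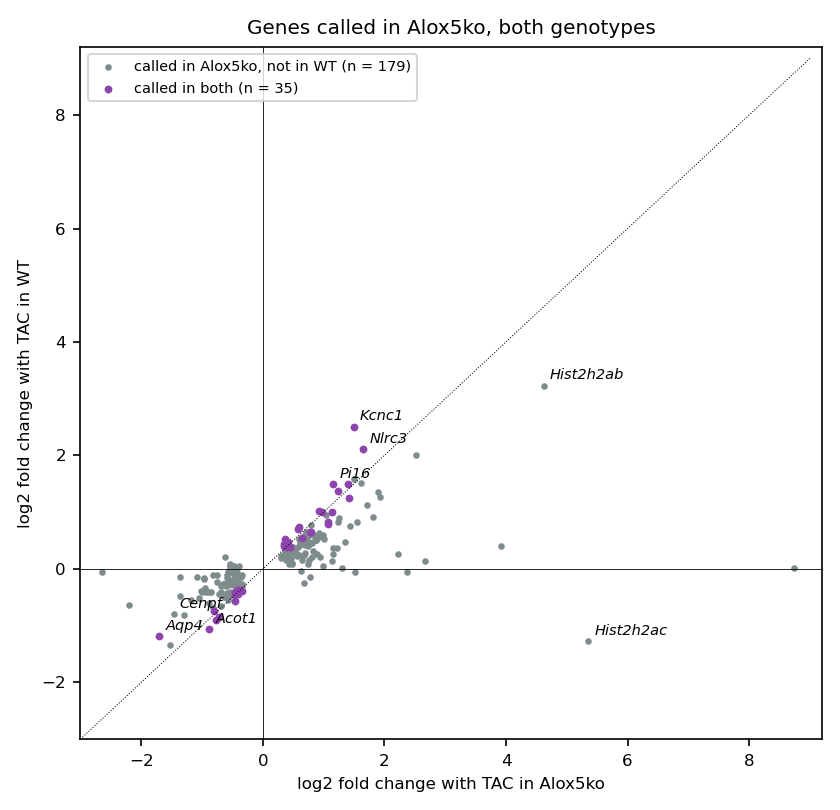
Log2 fold change with TAC in WT (y axis) against that in Alox5ko (x axis) for the 214 genes called in Alox5ko; purple points are the 35 genes also called in WT, and the dotted line marks equal values. Most points lie between the horizontal axis and the dotted line, and 200 of 214 have the same sign in both genotypes. The points beyond 3 on the x axis are genes of the Hist2 cluster with few counts in Alox5ko_NS. These genes passed the count filter through TAC libraries alone.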

How the data were processed

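Total RNA of left ventricle was sequenced after oligo(dT) selection, per the labels' protocols. The authors deposited counts per gene and RPKM values for 12 libraries; HISAT2, DESeq2 and the builds GRCh38 and mm10 are named, without versions, in the submitters' processing notes, and the counting tool and its strand setting are not given in the sources used here. The deposited RPKM equal the counts divided by gene length and library total within 0.1% in 254619 of 254619 values. RPKM served only for levels between genes and the Myh7 share; all tests used the counts.

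Counts were fitted with edgeR 4.0.16 (R 4.3.3; limma 3.58.1), by TMM scaling and the robust quasi-likelihood test over 12 libraries in 4 groups, on 15202 genes with at least 10 counts in at least 3 Alox5ko libraries, with Benjamini-Hochberg adjustment and a threshold of 0.05. The labels do not say that libraries are separate animals, so p-values measure the spread between these libraries. Libraries of a group differed beyond sampling noise (chi-square per gene of 5.31 to 31.5), and each was counted once.

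Named genes were the 15 highest and 15 lowest called values at a mean log2 CPM of at least 1 whose groups do not overlap, leaving out predicted gene models, pseudogenes and symbols turned into dates, up to 4 called members per list or, where none was called, 2 uncalled ones, a panel of textbook genes, and the genes with the smallest p for the difference of responses; further uncalled pathway members were added for context, and other called genes were chosen after their values were seen. One gene that the rule names is not reported here. The members and lists were chosen with earlier results of these data known. Alternatives were other scalings and filters, DESeq2 1.42.0, a fit of the 6 Alox5ko libraries alone, a replicate block and leaving out each library. The 3 promoters come from RefSeq on GRCm38.p6.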

Additional observations from a re-analysis of the deposited data

How the results depend on the processing

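The 214 calls in Alox5ko were 207 with DESeq2's size factors, 211 with upper-quartile scaling and 209 with edgeR's own filter. With no filter there were 756 (404 higher and 352 lower), with DESeq2 386 (223 higher and 163 lower), and with the 6 Alox5ko libraries fitted alone 161 (107 higher and 54 lower), of which 120 were among the 214. Of 72 called named genes, 20 lost the call in that fit and none by DESeq2; of those not called, 17 were called by DESeq2 and 4 in that fit. Leaving out each library gave 63 to 374 calls, with 31 to 219 higher and 17 to 155 lower; the high end was without Alox5ko_TAC 2, and omission of any other library left 63 (Alox5ko_TAC 1) to 95 (Alox5ko_NS 3). The causes were not tested.

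In WT, 117 calls became 538 with no filter, 282 with DESeq2 and 17 to 94 with a library left out. The difference of responses had 0 calls by edgeR, 83 with no filter and 1 by DESeq2 (Errfi1, 1.21, adjusted p = 0.00698). With a library left out it had 0 to 1 (Tmem82 without Alox5ko_NS 1, 2810474O19Rik without WT_TAC 1 and Nab2 without WT_TAC 2). By edgeR, 818 of 15202 genes had an unadjusted p under 0.05, near the share of 0.05 that no difference at all would give. The Myh7 share difference was 0.269 to 0.606 percentage points with a library left out. No called named gene changed sign under any alternative; among those not called, Pdk4, Camk2b, Alox5 and Wt1 are examples whose small values changed sign with a library left out.

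Deviations of same-numbered libraries from their group means were weakly correlated, with r of -0.10, 0.08 and 0.05 in Alox5ko. In WT they were 0.09, 0.09 and 0.05, each the highest for its WT_NS library. Whether the numbers pair libraries cannot be told from such weak values in groups of 3. With a replicate block there were 175 calls in Alox5ko (93 higher and 82 lower), 112 in WT and 0 for the difference.

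Depth limits genes under the filter: Runx2, Spp1, Sln and Bmp10 had too few counts to test.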
